A study of Mus musculus with 2 samples.

Results

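The 44 collagen genes on the array were examined in ureters of E16.5 mouse embryos, in which expression was measured on 2 dual-colour oligonucleotide arrays. They were chosen by name alone, as all genes whose symbol in the array files reads Col, a number, the letter a and a number, and made up 44 of the 29982 genes with values. These genes were represented by 69 of 39429 probes. All 69 kept the symbol of the array files after naming through RefSeq, where a probe without a RefSeq match keeps that symbol by default. Each array compared RNA of pooled ureters from Pax2-cre/+; Pparg(fl/fl) embryos, in which a Pax2-cre transgene recombines the floxed exons 2 and 3 of Pparg in the epithelium of the ureter and the collecting ducts (Pparg-cKO), with RNA of pooled ureters from littermates without cre, whose genotype is given as Pparg(fl/?). Array 1 carried female pools and array 2 male pools, all on the outbred NMRI background. The dyes were exchanged between the arrays, so that sex and dye cannot be told apart, and each genotype was represented by 1 pool per sex. Whole ureters were used, so that fewer cells of a type and less RNA per cell cannot be told apart in any value below.

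Collagens are secreted or membrane-anchored proteins built of 3 chains that wind into a triple helix, in which glycine recurs after every pair of other residues. Fibrillar collagens form the fibrils of connective tissue, network-forming type IV collagen is the scaffold of basement membranes, beaded filaments of type VI collagen surround cells, and FACITs (fibril-associated collagens with interrupted triple helices) sit on fibril surfaces. In the developing ureter, a mesenchymal wall that gives rise to fibroblasts of the lamina propria and adventitia and to smooth muscle surrounds the urothelium, with a basement membrane between them.

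The repeat that defines the family is legible in 2 of the 69 collagen probes, which are shown because they make this sequence visible. Their GG dinucleotides, in capitals, recur at every ninth base in phase with the glycine codons. Only 6 of the 39429 probes (each of 60 bases) had GG at every ninth base throughout, and the collagen probes were those of Col15a1 (mm9, chr4:47283786-47283845, plus strand) and Col25a1 (mm9, chr3:130270497-130270556, plus strand).
Col15a1: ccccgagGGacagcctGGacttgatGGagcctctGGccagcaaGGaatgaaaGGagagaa
Col25a1: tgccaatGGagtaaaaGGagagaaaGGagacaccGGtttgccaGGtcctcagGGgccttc
The Col15a1 probe was not well above background. The Col25a1 probe gave processed signals of 28.5 and 29.7 on array 1 and 31.6 and 31.5 on array 2. Both genes had a brighter probe elsewhere, which is used below.

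The dye labels and the direction of the study conflict, and every ratio is therefore given as RNA A over RNA B. RNA A is the RNA labelled red on array 1 and green on array 2. By the dye labels RNA A is the control, whereas by the direction of the deposited fold changes, which correlated with RNA A over RNA B at r = 0.997 over probes on both arrays, RNA A is Pparg-cKO if those values are Pparg-cKO over control. No genotype was assigned from the values. A log2 ratio above 0 denotes a brighter signal in RNA A. The targeted gene, Pparg, had an RNA A signal of 11295 and an RNA B signal of 7430 on array 1, which became 12888 and 7872 on array 2 (log2 ratio 0.66 ± 0.08, SD, n = 2 arrays, limma adjusted p = 0.61). Pparg was past 1.5-fold towards RNA A on both arrays (log2 ratios 0.60 and 0.71). Its only probe lies at mm9 chr6:115440213-115440272, and whether this is inside the floxed exons was not established, so that it does not check the labels.

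Both arrays lay on 1 slide and held 157716 probe spots each, of which none was saturated. A gene was represented by its brightest probe, and 42 of the 44 collagens were well above background and tested. Col13a1, a transmembrane collagen, and Col28a1 were not, with processed signals from 1.25 to 2.16 and from 2.90 to 3.88. Of the 42, 29 had a mean signal of at least 100 and 13 a lower one. In these 29, the SD of the log2 ratio over the spots of a probe had a median of 0.03 (range 0.01 to 0.11), whereas the SD between the arrays had a median of 0.23 (range 0.05 to 1.04). The repeat spots of bright collagen probes thus differed little, and the arrays set the error of each mean. The arrays differ in sex and dye orientation, so that their SD includes any effect of these and is not replicate error alone.

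No collagen gene was at least 1.5-fold brighter in the same RNA on the female and the male array at a signal of 100 or more in the brighter RNA. Across all genes this filter was passed by 0.157% in RNA A and by 0.23% in RNA B. limma, applied to the 2 ratios of each of the 21429 genes tested, called 0 of the 42 collagens after Benjamini-Hochberg adjustment, where it called 0.313% of all genes tested. At an unadjusted limma p under 0.05 there was 1 collagen, Col19a1 (2.38% of 42, beside 3.78% of all genes tested). The lowest adjusted p of a collagen in limma was 0.45. The 95% intervals of the mean log2 ratio extended 0.45 to 0.73 on either side of it, with a median of 0.48. These intervals are not adjusted for the number of genes.

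The mean log2 ratios of the collagens were small. In 30 of the 42 the mean was within 0.2 of 0, and their median was -0.10 (quartiles -0.16 and -0.02), beside 0.01 over all genes tested (quartiles -0.10 and 0.10). The mean was below 0, towards RNA B, in 33 of 42 collagens (78.6%) and in 48.1% of all genes tested. The arrays did not share this shift. On array 1, 34 of 42 collagens were brighter in RNA B, with a median of -0.23, and on array 2, 27 of 42 were brighter in RNA A, with a median of 0.09. Of all genes tested, 50.0% were brighter in RNA B on array 1 and 54.2% were brighter in RNA A on array 2.

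**Figure D1:**
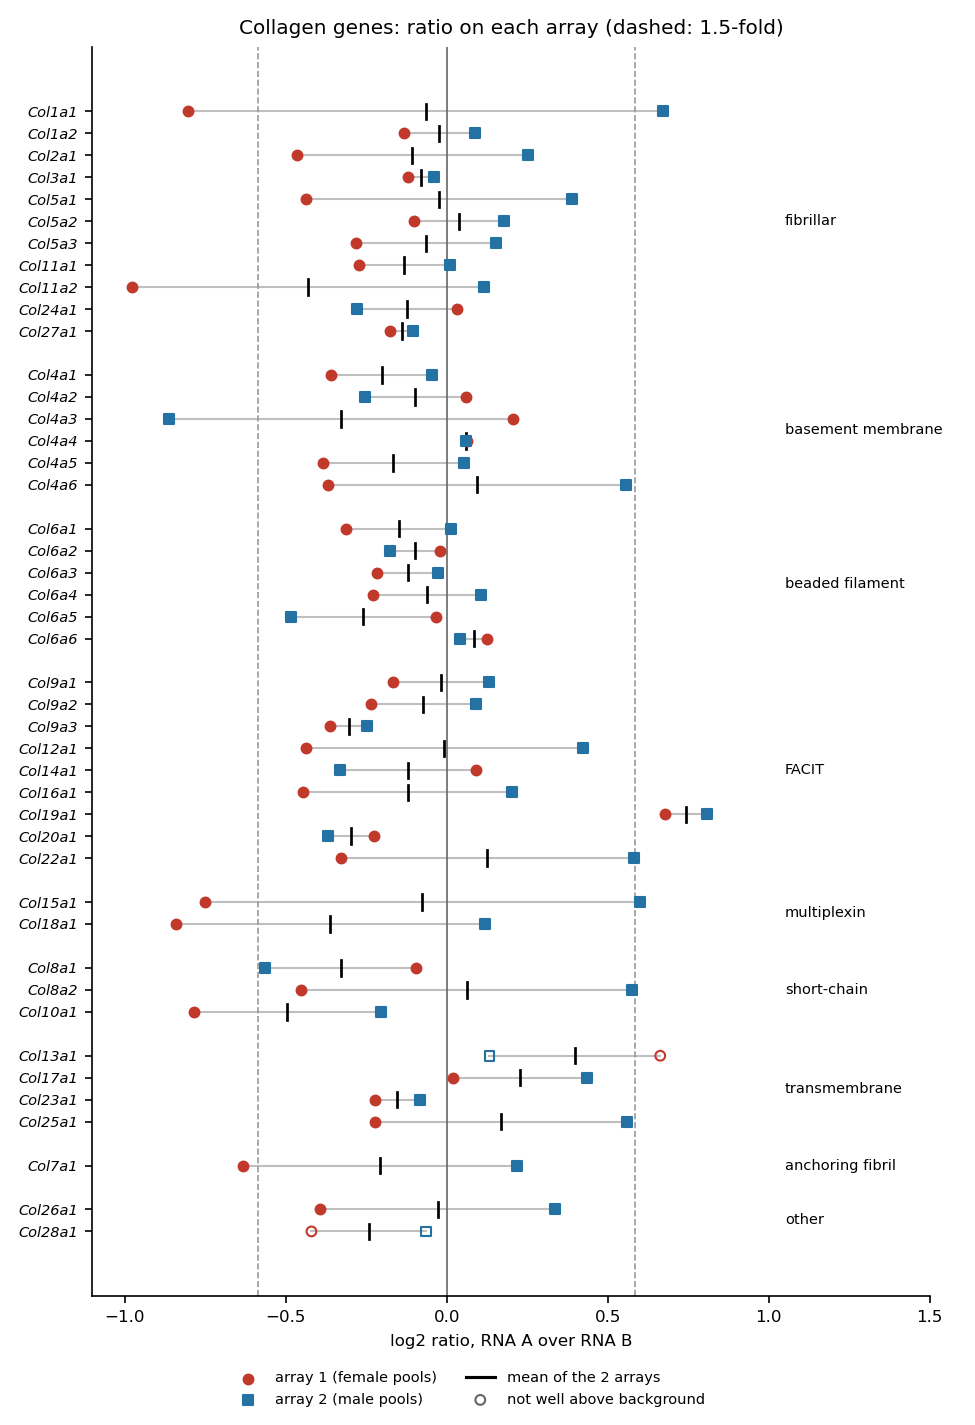
Log2 ratio of RNA A over RNA B of the 44 collagen genes, by class, on array 1 (circles) and array 2 (squares), with the mean of both as a black bar and 1.5-fold as dashed lines. Most circles lie left of 0 and most squares to their right, and Col1a1 and Col15a1 cross both dashed lines.

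In 27 of the 42 collagens (64.3%) the 2 arrays gave opposite signs, a share near the 61.0% of all genes tested. The split between the dyes was further from that of all genes. Of the 27, 23 (54.8% of 42) were brighter in the green channel on both arrays, that is, in RNA B of the female pools and in RNA A of the male pools, beside 32.6% of all genes tested. The reverse, red brighter on both arrays, was found in 4 collagens (9.52%), beside 28.4% of all genes tested. RNA B was brighter on both arrays in 11 collagens (26.2%), beside 17.4%, and RNA A in 4 (9.52%), beside 21.6%. Among the 29 collagens with a mean signal of at least 100, 18 (62.1%) were brighter in green on both arrays, beside 34.3% of the 14970 genes at that signal. The median GC content of the probes was 41.7% both for the tested collagens and for all genes tested. The part of dye or of sex in this pattern cannot be told apart.

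**Figure D2:**
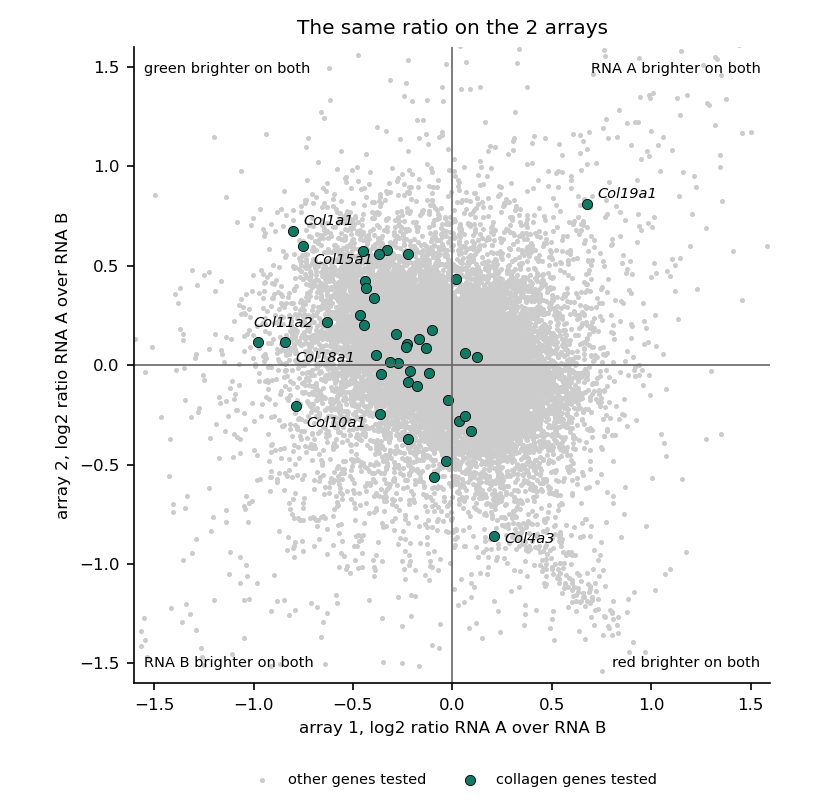
Log2 ratio of RNA A over RNA B on array 1 (horizontal) against array 2 (vertical) for the 42 collagen genes tested (green points) and the other genes tested (grey); 93 genes beyond 1.6 on an axis, none of them a collagen, are not drawn. The upper left field, where green was brighter on both arrays, holds 23 of the 42 collagens.

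Past 1.5-fold, 2 collagens went in opposite directions on the arrays, beside 0.43% of all genes. The first was Col1a1, which encodes the main chain of type I collagen, the principal fibrillar collagen of connective tissue. Its probe (mm9, chr11:94813115-94813174) read 32033 for RNA A against 55847 for RNA B on array 1, and 53404 for RNA A against 33493 for RNA B on array 2. The log2 ratios were -0.80 and 0.67, with SDs over 4 spots of 0.03 and 0.02, and their mean was -0.06 ± 1.04 (SD, n = 2). The green signal was high and the red signal low on both arrays, and the average level on the arrays did not differ (log2 difference below 0.01 in size). Col1a2, whose product joins 2 chains of Col1a1 in the same trimer, gave 50528 and 55417 on array 1 and 57180 and 53824 on array 2. Its ratios had the same signs, -0.13 and 0.09, but a mean of -0.02 ± 0.16 (SD, n = 2), so that the chains of 1 trimer were not alike in the size of the shift.

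The second was Col15a1, a multiplexin of basement membrane zones. Its probe (mm9, chr4:47325273-47325332) read 63.0 for RNA A and 106 for RNA B on array 1, then 101 and 66.7 on array 2, with log2 ratios of -0.75 and 0.60. These signals sit at the threshold of 100. A second probe, which shares 48 bases with the first and is no independent measurement, gave -0.63 and 0.46. The other multiplexin, Col18a1, from which endostatin is cleaved, shifted on array 1 only. It gave 3241 and 5805 on array 1 (log2 ratio -0.84) and 4483 and 4129 on array 2 (0.12). Its mean was -0.36 ± 0.68 (SD, n = 2, 95% interval -0.94 to 0.22). Its second probe gave -0.58 and 0.20. In all, 3 collagens (Col1a1, Col15a1 and Col18a1) were past 1.5-fold with a signal of 100 on array 1, all brighter in RNA B, where 2.12% of all genes were. On array 2 there were 2 (Col1a1 and Col15a1), both brighter in RNA A, where 1.00% of all genes were.

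**Figure D3:**
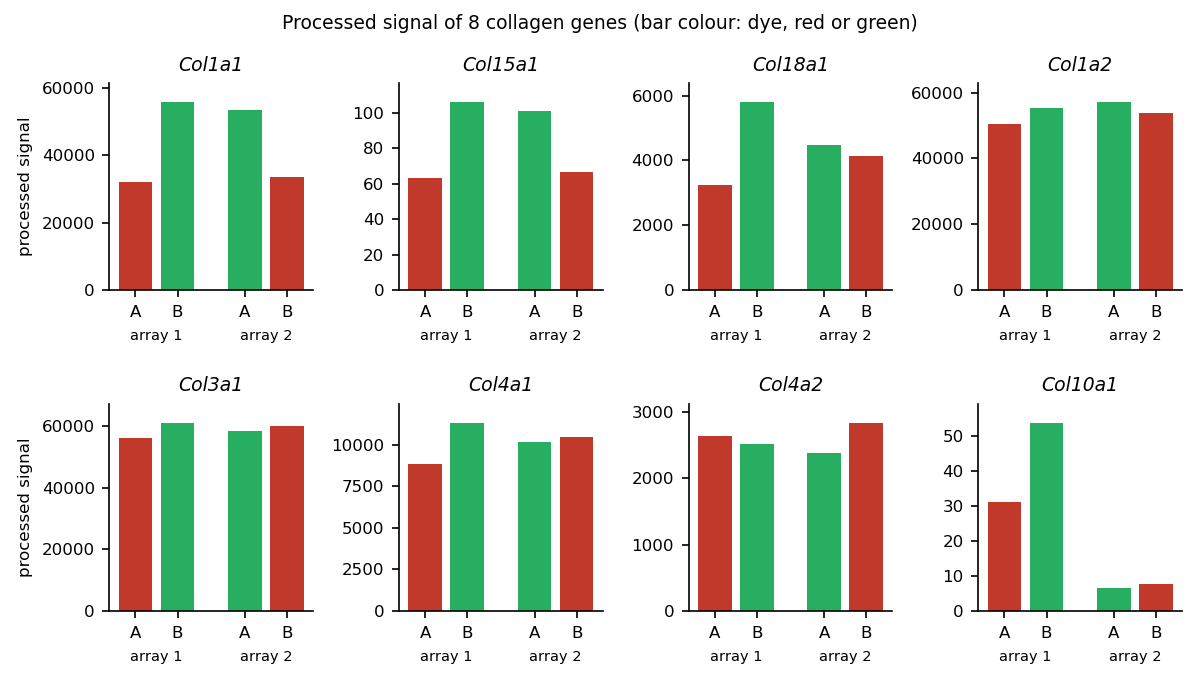
Processed signals of 8 collagen genes in RNA A and RNA B on each array, with the bars in the colour of the dye and each axis from 0. In Col1a1 and Col15a1 the green bar is the higher on both arrays, the bars of Col1a2, Col3a1 and Col4a2 are closer to each other, and Col10a1 falls from array 1 to array 2 in both RNAs.

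All 11 fibrillar collagens were tested, and their median log2 ratio was -0.08. Green was brighter on both arrays in 8 of them, RNA B in 2, red in 1 and RNA A in 0. Col3a1, the chain of type III collagen that co-assembles with type I in extensible tissue, gave 56255 and 61136 on array 1 and 58476 and 60035 on array 2, which is a log2 ratio of -0.08 ± 0.06 (SD, n = 2). It was brighter in RNA B on both arrays, by less than the 95% interval of -0.53 to 0.37. Type V collagen regulates the diameter of type I fibrils. Its chain Col5a1 gave 7550 and 10215 on array 1 and 10114 and 7719 on array 2, with ratios of -0.44 and 0.39 and thus the signs of Col1a1. Its partner Col5a2 gave 3654 and 3919, then 3869 and 3421, with ratios of -0.10 and 0.18. The cartilage-type chains Col2a1 (-0.47 and 0.25) and Col11a1 (-0.27 and 0.01) had the same signs. Col11a2 had the second lowest mean of the family, -0.43 ± 0.77 (SD, n = 2), at dim signals of 18.0 and 35.5 on array 1 and 26.7 and 24.6 on array 2. The remaining fibrillar genes, Col5a3, Col24a1 and Col27a1, had means from -0.14 to -0.06.

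Type IV collagen is the network of basement membranes, and its 6 chain genes lie as 3 pairs, each pair transcribed in opposite directions. The median log2 ratio of the 6 was -0.13, and none passed the filter. Col4a1, whose product forms a trimer with that of Col4a2 in most basement membranes, gave 8838 and 11336 on array 1 and 10152 and 10475 on array 2, with ratios of -0.36 and -0.05. Col4a2 gave 2636 and 2527 on array 1 and 2382 and 2842 on array 2, with ratios of 0.06 and -0.25. The chains of this trimer thus differed in sign on array 1 and shared it on array 2, and their means of -0.20 ± 0.22 and -0.10 ± 0.22 (SD, n = 2) were within each other's spread. The 300-base windows around their starts (250 bases before, 50 after) overlap by 78 bases on opposite strands. They are shown because these genes share a start region, with CCAAT and GGGCGG on either strand in capitals.
Col4a1 (GRCm38.p6, chr8:11312777-11313076, minus strand): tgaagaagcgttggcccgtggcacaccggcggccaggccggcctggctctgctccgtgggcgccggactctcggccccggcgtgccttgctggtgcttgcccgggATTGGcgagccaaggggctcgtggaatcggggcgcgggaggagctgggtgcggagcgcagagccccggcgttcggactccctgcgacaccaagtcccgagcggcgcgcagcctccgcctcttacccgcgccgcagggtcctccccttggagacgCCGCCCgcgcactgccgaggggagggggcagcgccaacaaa
Col4a2 (GRCm38.p6, chr8:11312555-11312854, plus strand): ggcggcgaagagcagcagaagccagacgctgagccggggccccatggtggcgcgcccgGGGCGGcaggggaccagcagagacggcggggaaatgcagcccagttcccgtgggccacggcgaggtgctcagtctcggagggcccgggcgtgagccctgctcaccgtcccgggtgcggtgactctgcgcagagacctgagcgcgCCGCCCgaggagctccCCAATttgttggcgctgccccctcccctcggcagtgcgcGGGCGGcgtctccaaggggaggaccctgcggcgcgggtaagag
The windows hold 1 CCAAT each, and 1 and 3 copies of GGGCGG.

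In the next pair, Col4a3 gave 37.7 and 32.6 on array 1 and 27.6 and 50.2 on array 2, with ratios of 0.21 and -0.86, the lowest of any collagen on array 2. Col4a4 gave 91.7 and 87.8, then 85.0 and 81.5, and its ratio was 0.06 on both arrays. In the pair on the X chromosome, Col4a5 gave 3333 and 4350, then 3455 and 3331, with ratios of -0.38 and 0.05. Col4a6 gave 776 and 1002, then 1244 and 845, with ratios of -0.37 and 0.56 and a mean of 0.09 ± 0.65 (SD, n = 2). No pair had a common pattern on both arrays except Col4a5 and Col4a6, which were both brighter in green in the probes used. A dimmer probe of Col4a6, at signals of 80.4 to 88.6, had the opposite signs (0.14 and -0.04).

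RefSeq windows of this kind were given for 35 of the 44 collagen genes, in 38 windows. GGGCGG, on either strand, was present in 23 of the 38 (60.5%), beside 35.7% of all 32851 windows. CCAAT was present in 34.2%, beside 37.4%, and TATAAA in 13.2%, beside 13.6%. AGGTCA, the core sequence bound by many nuclear receptors, was present in 21.1%, beside 16.3%, and its direct repeat AGGTCANAGGTCA, the kind of element that PPARG binds with RXR, in 0, beside 0.0396%. These counts describe the letters in the windows only.

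Of the chains of type VI collagen, which anchors cells to the interstitial matrix, 6 of 6 were tested, with a median log2 ratio of -0.11. Col6a1 gave 16240 and 20178 on array 1 and 19985 and 19782 on array 2, with ratios of -0.31 and 0.01. Col6a2 gave 1731 and 1757, then 1636 and 1847, with ratios of -0.02 and -0.18. Col6a3 gave 18317 and 21260, then 22506 and 22938, with ratios of -0.21 and -0.03. The means of these chains of the classical trimer lay close together, at -0.15 ± 0.23, -0.10 ± 0.11 and -0.12 ± 0.13 (SD, n = 2), all towards RNA B, and the 95% interval of each included 0. The later-described chains Col6a4, Col6a5 and Col6a6 had means of -0.06, -0.26 and 0.08. Col6a6 gave 313 and 287, then 329 and 319, which placed it among the 6 highest means of the 42 tested collagens, and RNA A was brighter on both arrays.

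The 9 FACITs had a median log2 ratio of -0.07, and 5 were brighter in green on both arrays. Col14a1, which decorates fibrils of type I collagen, gave 21962 and 20603 on array 1 and 18298 and 23008 on array 2, with ratios of 0.09 and -0.33, opposite in both signs to Col1a1. Its dimmer probe gave 0.18 and -0.03. Col12a1, the closest relative of Col14a1, showed the sign pattern of Col1a1, with ratios of -0.44 and 0.42. Col16a1 had ratios of -0.44 and 0.20, and those of the chains of type IX collagen, Col9a1 and Col9a2, were -0.17 and 0.13, and -0.23 and 0.09. Col9a3 was dim, with signals of 7.26 and 9.33, then 9.40 and 11.1, and a mean of -0.30 ± 0.08 (SD, n = 2). Col20a1 had a mean of -0.30 ± 0.10. Col22a1 gave 43.3 and 54.4, then 54.3 and 36.3, with ratios of -0.33 and 0.58.

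Col19a1 had the highest mean log2 ratio of the family and the only one past 1.5-fold, 0.74 ± 0.09 (SD, n = 2, 95% interval 0.29 to 1.19). By limma fitted across all genes its adjusted p was 0.45 (0.0049 before adjustment). On array 1 it read 12.05 for RNA A and 7.53 for RNA B, on array 2 it read 5.91 and 3.37. All lie far below 100, the SD over 4 spots was 0.28 and 0.78, and its other probe was not well above background. With normexp background correction and loess the mean was 0.18, so that the size depended on how the background was treated.

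Among the short-chain collagens, Col10a1, a marker of hypertrophic cartilage, had the lowest mean of the family at -0.49 ± 0.41 (SD, n = 2, upper end of the 95% interval 0.01). It gave 31.3 and 53.9 on array 1 and 6.59 and 7.60 on array 2. The array difference exceeded the difference between the RNAs. The mean level over both RNAs was lower on array 2 by a log2 difference of -2.54, the lowest value among the collagens, where the median over the 42 was 0.03. One other collagen, Col19a1, passed 1.5-fold in level between the arrays (-1.09), as did 3.33% of all genes tested. Sex and array cannot be told apart here. Of the 7 cartilage markers, Acan, Matn3 and Comp were not well above background, and the list summed to 3219 and 3126 on array 1 and 3472 and 2502 on array 2. Nearly all of this sum came from Hapln1 (1076 to 1313 over the channels) and Sox9 (1388 to 2272). Of markers of nephron and glomerulus, Lhx1 gave 82.2 and 78.8 on array 1 and 17.2 and 27.6 on array 2. Nphs1 and Umod of this list were not well above background, and the list's sum ranged from 2061 to 2967 on array 1 and from 1883 to 1902 on array 2. Whether tissue attached to the ureter had a part in the level of Col10a1 was not tested. Col8a1, of vessel and corneal basement membranes, gave 56.9 and 60.8, then 52.2 and 77.1, with a mean of -0.33 ± 0.33, and Col8a2 had ratios of -0.45 and 0.58 at a signal of 4983 to 7927.

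Collagens that attach epithelia to the matrix gave signals of 36.2 to 124. Col17a1, a transmembrane component of hemidesmosomes in basal epithelial cells, gave 51.0 and 50.3 on array 1 and 48.9 and 36.2 on array 2, with ratios of 0.02 and 0.44. Its mean of 0.23 ± 0.29 (SD, n = 2, 95% interval -0.25 to 0.70) was the second highest of the 42 tested collagens. Col7a1, the collagen of anchoring fibrils beneath epithelia, gave 61.9 and 95.8, then 124 and 107, with ratios of -0.63 and 0.22. The brightest probe of Col25a1, a neuronal transmembrane collagen, gave 263 and 306, then 248 and 168, with ratios of -0.22 and 0.56, while 2 of its other 3 probes favoured RNA A on each array. Col23a1 had a mean of -0.15 ± 0.10, and Col26a1 ratios of -0.39 and 0.34, with the same values to 0.01 in its second probe, which shares 55 bases with the first.

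Genes that make, cross-link, bind or degrade collagen, or inhibit its proteases, were read from lists in the same way. None of them passed the filter in 1 direction or was called by limma. Of 19 genes of modification and folding, which hydroxylate and chaperone the chains in the endoplasmic reticulum, the median log2 ratio was 0.04. Green was brighter on both arrays in 5 of them, red in 7, RNA A in 5 and RNA B in 2. The collagen chaperone Serpinh1 (HSP47) gave -0.26 and 0.46, the same signs as Col1a1, while the prolyl 3-hydroxylase P3h1 had the lowest mean of the list (-0.18, from 0.47 and -0.83) and Colgalt2, a galactosyltransferase, the highest (0.25). Of 15 tested genes of procollagen cleavage and cross-linking, 9 were brighter in green on both arrays and the median was 0.06. Here Adamts14, an N-propeptidase, had the lowest mean (-0.31) and Tnxb, a matrix protein that binds fibrils, the highest (0.19). The cross-linking enzyme Lox gave -0.03 and 0.05.

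Of 9 tested collagen receptors, 5 were brighter in green and 4 in red on both arrays, with a median of -0.08. Ddr1, the discoidin receptor of epithelia, went past 1.5-fold in opposite directions, with signals of 455 and 917 on array 1 and 1153 and 708 on array 2 and ratios of -1.01 and 0.70. Ddr2, the receptor of mesenchymal cells, gave 0.33 and -0.22. Itga10 had the lowest mean (-0.24) and Gp6, a platelet receptor, the highest (0.15). The list of collagen cleavage holds proteases and the protease inhibitors Timp1, Timp2 and Timp3. Of its 8 tested genes the median was -0.01, and the ends of the list were the dim genes Mmp9 (-0.61) and Mmp8 (0.26). Of 15 other basement membrane genes, which include the laminins, nidogens, perlecan and agrin, the median was -0.14. Green was brighter on both arrays in 8, RNA B in 5, red in 2 and RNA A in 0. Lama5, the main laminin alpha chain of mature epithelial basement membranes, had the lowest mean (-0.53, from -1.38 and 0.31).

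**Figure D4:**
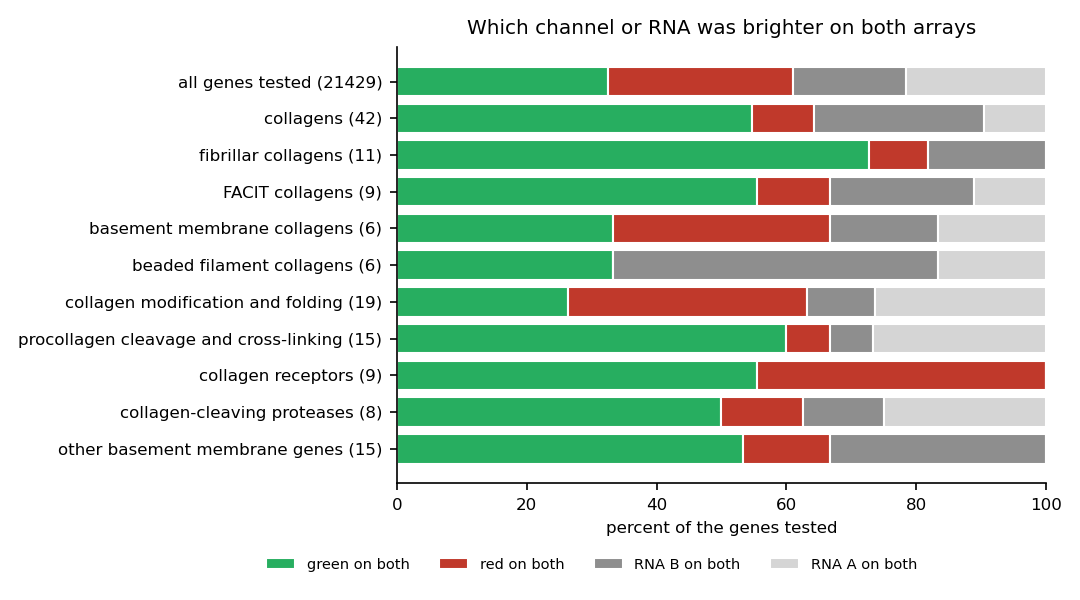
Percent of the tested genes of each list (number in brackets) that were brighter in the green channel, the red channel, RNA B or RNA A on both arrays. Green makes up 54.8% for the collagens and 32.6% for all genes tested. It also makes up 9 of 15 genes of procollagen cleavage and cross-linking and 5 of 9 collagen receptors. The same holds for 4 of 8 genes in the protease list, which includes the Timp inhibitors, and 8 of 15 other basement membrane genes. In collagen modification and folding red is the more frequent of both dyes (7 of 19, with green in 5).

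Markers of the cell types in the dissected tissue were set beside the collagens. All 7 fibroblast markers, from the cells that make most fibrillar collagen, were well above background, with a median log2 ratio of 0.01, a lowest mean for Tcf21 (-0.05) and a highest for Thy1 (0.24). Their summed signals ranged from 60237 to 65489 over the 4 channels. In contrast, 6 of 8 smooth muscle markers favoured RNA B on both arrays (median of the list -0.57), and the list summed to 80078 and 102039 on array 1 and 77750 and 133017 on array 2. Its lowest mean was that of Myh11 (-0.80, limma adjusted p = 0.59) and its highest that of Des (-0.12). The 8 urothelial markers had a median of -0.16, from Krt18 (-0.55) to Krt5 (0.47), and summed to 68048 and 99756 on array 1 and 87912 and 91334 on array 2. The 44 collagens summed to 256509 and 312694 on array 1 and 306768 and 280562 on array 2, and the higher sum was that of RNA B with the female pools and of RNA A with the male pools. Much of this was Col1a1, without which the sums were 224475 and 256847 on array 1 and 253364 and 247069 on array 2. The median over the markers of endothelium was 0.08 (6 of 6 tested, from Cdh5 at -0.12 to Tek at 0.23; sums of 11666 to 12947). Glial markers had a median of -0.02 (4 of 5 tested, from Erbb3 at -0.33 to Sox10 at 0.11; sums of 10990 to 19167). For macrophages it was 0.17, from Cd68 (0.14) to Lyz2 (0.39), with all 5 markers brighter in RNA A on both arrays and sums of 4080 to 5042. The cartilage list had a median of 0.13, from Matn1 (-0.03) to Sox9 (0.34), and the nephron list one of -0.31, with Wt1 highest (-0.21) and Slc34a1 lowest (-2.73, limma adjusted p = 0.012, at signals of 4.20 to 37.2). The part of cell composition in the collagen values was not tested.

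Several probes of a gene gave a check within the arrays. Of the 14 collagens with at least 2 probes well above background, the sign of the mean log2 ratio was shared by all such probes in 9 and differed in 5 (Col6a2, Col8a2, Col12a1, Col14a1 and Col25a1). The 9 include Col15a1 and Col26a1, whose probes share 48 and 55 bases and are no independent measurements. In each of the 5 the ratio of the brightest probe was used. The largest contrast on array 1 was in Col12a1, with -0.44 at a signal of 4862 to 6587 and 0.54 in a probe with signals of 5.85 to 8.94.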

How the data were processed

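Ureter RNA of E16.5 embryos was compared on 2 dual-colour arrays. The stage label of the second channel differs (E14.5) from the titles and protocols (E16.5), and the latter was used. The deposited processed intensities came from Feature Extraction 10.7.3.1, per the file headers. The software subtracted background, put surrogates in place of values near background (green 7.98% and red 15.2% of array 1) and normalised the dyes by a linear step with LOWESS. Ratios of dim or dye-biased probes depend on these steps. The deposited log10 ratios of red over green served only to check the channels and matched the processed signals within 0.001 for 88.9% of spots. The deposited table holds signed fold changes, a score whose direction is given only by the order in the sample titles (Pparg-cKO vs control). It was used to compare directions and as an alternative.

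Control spots (17263 per array) and flagged spots (5705 and 5579) were left out. Spots of 1 probe were averaged on the log2 scale. Probes were named through RefSeq (GRCm38.p6) in 28322 of 39429 cases, and coordinates (mm9) come from the array files. To count as well above background, a probe needed this flag on a share of 0.5 or more of its spots on each array in at least 1 RNA. limma 3.58.1 (R 4.3.3; lmFit with an intercept, eBayes) was fitted to all genes tested and was checked on simulated data. The spread between the 2 arrays of pools includes any difference of sex or dye orientation. P-values rest on this spread, which limma draws towards the spread over all genes tested. An interval can thus be wider or narrower than the 2 arrays of a gene alone would give. The number of arrays limits the precision. Errors are SD over arrays. Promoter windows are from RefSeq (GRCm38.p6). data.table (version 1.17.8), pandas and matplotlib 3.10.9 were used.

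The collagens, lists and tests were chosen with earlier results of these data known. Named with signals are the collagens past the filter, the 6 highest and 6 lowest mean log2 ratios and the main trimer chains; of other lists, genes past the filter and both ends; and Pparg. Ddr2, Serpinh1, Lox, P3h1 and Lhx1 are given for their role or level, chosen after their values were seen where they fall outside this rule. Some genes of the other lists are not reported here. Alternatives were normexp with loess, loess on processed signals, median centring, the deposited table, the mean over probes and no filter on dim probes. Others were flagged spots kept, other signal and fold thresholds, an intensity trend, separate channels with a term for dye, and leaving out each array. The count of collagens brighter in green was added after seeing the data. Slide and scan could not be fitted as a block, since both arrays share 1 slide and 1 scan.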

Additional observations from a re-analysis of the deposited data

Results flagged for a closer look

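Collagens drew attention because the female pools of array 1 and the male pools of array 2 moved in opposite directions. The difference was not tested, since each sex had 1 array, and sex and dye cannot be told apart. Col1a1 had a log2 ratio of RNA A over RNA B of -0.80 on array 1 and 0.67 on array 2. Col15a1 had -0.75 on array 1 and 0.60 on array 2. In all, 27 of the 42 tested collagens (64.3%) had opposite signs on the 2 arrays, beside 61.0% of all genes tested, a share near the background.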

How the results depend on the processing

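The count of 0 collagens past the filter in 1 direction held under normexp with loess, loess on processed signals, centring, the deposited table, the mean over probes, flagged spots kept, signals of 50 and 200 and the 2-fold threshold, but with no signal threshold 1 collagen (Col19a1) was brighter in RNA A. Read from array 2 alone 2 collagens passed towards RNA A and 0 towards RNA B, and from array 1 alone 0 and 3, so that leaving out an array gave 0 to 2 for RNA A and 0 to 3 for RNA B. The 2 collagens in opposite directions became 0 with normexp and loess and at 2-fold, and 1 after centring, with the mean over probes, with flagged spots kept and at a signal of 200. Col1a1 was the one left after centring, over the mean of probes and with flagged spots kept, where Col15a1 fell to 0.58, 0.53 and 0.56 on array 2. limma called 0 collagens under every alternative with a test (lowest adjusted p of a collagen 0.31, with the mean over probes). These included the fit of separate channels, which had a term for dye and no replicate block. Its own error term was the difference in level between the arrays. The median log2 ratio of the collagens ranged from -0.11 to -0.08 over the alternatives, and was 0.09 without replicate 1 and -0.23 without replicate 2, so that its direction depended on the array. The number of collagens brighter in green on both arrays was 21 to 25 over these settings, beside 30.7% to 35.1% of all genes tested. Of the 42 tested genes, 2 (Col6a2 and Col12a1) changed the sign of their mean under an alternative other than leaving out an array, from means of at most 0.10 in size, and Col13a1, not well above background, went from 0.40 to -0.04 with normexp and loess. Of 394 gene values, 11 moved by more than the spread of the arrays. Signals near background limited Col9a3, Col10a1, Col11a2 and Col19a1. A block for slide or scan was not run, since both arrays share them.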
